A study of Mus musculus with 24 samples.

Results

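The ER and GR constructs of the Hi-TransMet library are 4 DNA fragments, chosen by their names from the 62 constructs of each pool. Each carries, in the middle of the bacterial DNA fragment FR1, either the wild-type (WT) binding motif of the estrogen receptor (ER) or of the glucocorticoid receptor (GR), or the scrambled (Sc) control of that motif. FR1 was inserted by recombinase-mediated cassette exchange at the inactive β-globin locus of mouse embryonic stem cells (ESCs), so that each construct sat at 1 genomic site and its CpG methylation could be read by bisulfite sequencing. The 5 pools were C57BL/6 X 129S5 ESCs that received unmethylated FR1 (−SssI) or FR1 methylated in vitro by the bacterial CpG methyltransferase M.SssI (+SssI), neuronal progenitors (NPs) differentiated from such cells under both conditions, and C57BL/6 X 129/sv ESCs without TET1, TET2 and TET3 (TET TKO ESCs) under +SssI. The wild-type ESC line and its NPs therefore differ from the TET TKO line in strain background as well as in the TET genes, and these cannot be told apart. Each condition is 1 pool of recombined cells, with biological and technical replicates merged. The columns of a pool are numbered runs, which the labels do not assign to replicates.

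ER and GR are ligand-activated transcription factors of the nuclear receptor family. Bound to steroid hormone, both act mainly as dimers on palindromic response elements, made of inverted repeats of a short core sequence. The glucocorticoid response element is shared with the mineralocorticoid and progesterone receptors, whereas the estrogen response element differs from it in the core sequence. Estrogen-related receptors, which take no estrogen, bind an extended form of a single repeat of the estrogen type. For FR1 the question was whether the presence of such a motif leaves the surrounding DNA less methylated than the scrambled control, after de novo methylation in −SssI cells or after prior methylation in +SssI cells. No steroid hormone was named among the culture additives. The media contained fetal bovine serum, whose steroid content was not stated, and retinoic acid was added for NPs. The motif and barcode sequences are not shown here.

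Methylation was measured at 18 CpGs upstream of the motif, from −291 to −32 bp, and at 5 CpGs downstream, at 37, 46, 109, 151 and 252 bp. The ER constructs, WT and Sc alike, hold 1 further CpG inside the motif, and the GR constructs hold none. All 94 CpG values of the 4 constructs had at least 10 reads in each of the 5 pools. Read numbers were very uneven, however, and the constructs were not spread evenly over the runs. In ESCs, the whole upstream amplicon of ER Sc came from run 4, as did 94.6% of the GR WT reads under −SssI and 87.6% under +SssI. Upstream, the other Sc fragments read in run 4 were less methylated on average than those in the runs set beside it. In run 4 of the −SssI pool, 19 other Sc fragments averaged 37.3% upstream methylation. In runs 5, 1 and 2, 17, 16 and 10 of them averaged 78.4%, 79.0% and 79.0%. In the +SssI pool, 13 averaged 50.1% in run 4 and 22 averaged 74.2% in run 5. Downstream, 17 averaged 44.4% in run 4 and 3 averaged 66.6% in run 5 of the −SssI pool. The downstream means of the same runs in the +SssI pool were close, at 66.87% (22 fragments) and 66.99% (21 fragments). Each mean covers the fragments with a CpG of at least 10 reads in that run, so the sets differ between runs. Each difference between WT and Sc (Δmet, the mean over CpGs of WT minus Sc in percentage points) is therefore given over pooled runs and again within the runs in which both fragments had 10 reads or more. The part that run composition plays in the pooled values was not tested further. Intervals are 95% and cover counting error only.

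ER in −SssI ESCs was the construct pair with the highest Δmet of the 26 motif pairs over pooled runs, and the 24th lowest of 25 within runs. The WT fragment was methylated at 71.4% (Wilson interval 67.3% to 75.2%, median 503.5 reads per CpG) and the Sc fragment at 19.7% (10.5% to 33.8%, 43 reads). Δmet was 51.8 points (± 12.5), whereas the median of the 26 pairs was −12.1 points. The value rests on the Sc fragment, which had the lowest mean of the 26 Sc fragments, whose median was 60.4%. The fragment without a motif stood at 60.3%, and ER WT was 11.2 points (± 10.5) above it over pooled runs. Of the upstream ER WT reads, 36.7% came from run 5 and 53.2% from run 1. These 2 runs differed in reads per construct by no more than sampling noise, and the interval counts their reads as separate. This comparison was not made within runs.

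CpG by CpG, 21 of the 24 ER CpGs were higher at WT and 1 was lower in this pool. A CpG was called at a difference of at least 10 points and an adjusted p under 0.05 (two-sided Fisher's exact test, Benjamini-Hochberg over the 616 CpGs of the 26 pairs). Over all pairs, 23.7% of CpGs were called higher and 48.4% lower, so the ER pair ran opposite to the more frequent direction. Over pooled runs, the stretch of higher CpGs was unbroken from −291 bp to the CpG in the motif, over 19 CpGs with a mean difference of 59.3 points (Fisher's exact test, highest adjusted p 1.21e-07). At −178 bp, the CpG with the largest rise, 87.2% of 507 WT reads and 2.33% of 43 Sc reads were methylated. Of the 24 CpGs of ER Sc, 9 had no methylated read at all. Among these, the CpG inside the motif had 0 of 59 reads, which allows a share of up to 5.08%, against 69.5% of 558 WT reads. The called fall was at 252 bp, where all 16 Sc reads and 56.9% of the 51 WT reads were methylated.

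The ER WT fragment differed between runs of the same pool. Upstream, it was methylated at 48.3% in run 4 (35 reads) and at 81.5%, 81.6% and 85.1% in runs 5, 1 and 2, the 3 of which differed in their reads per construct by no more than sampling noise. ER Sc could be read in run 4 alone, where it averaged 20.7% upstream. In that run Δmet was 27.6 points (± 20.5) upstream and 14.6 points (± 24.4) downstream, and 26.1 points (± 20.3) over all 24 CpGs. The difference kept its direction within the run at about the size of its interval, with 12 CpGs higher and 2 lower, beside 21.3% and 36.1% over all pairs compared within runs. The unbroken stretch of higher CpGs shrank to 5 CpGs from −178 to −103 bp (mean 58.4 points), and at −32 bp the direction turned, with 5.71% of 35 WT reads and 27.9% of 43 Sc reads methylated. The CpG in the motif had 56.6% of 76 WT reads in run 4, again above the 0 of 59 Sc reads.

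GR in −SssI ESCs gave no difference beyond counting error over the fragment. The WT fragment was at 50.04% (29.1% to 71.0%, median 18 reads) and the Sc fragment at 62.8% (59.1% to 66.4%, 667 reads), a Δmet of −12.8 points (± 23.4). The interval is wide enough to hold both no change and a difference of −36.2 points. Of the 23 CpGs, 8 were called lower, all of them upstream, and 2 higher, beside 48.4% and 23.7% over all pairs. The largest fall was at −90 bp, with 11.1% of 18 WT reads and 65.6% of 660 Sc reads methylated (adjusted p = 6.97e-06, Fisher's exact test). The largest rise was at 46 bp, with 47.1% of 17 and 13.0% of 138 reads. At most neighbouring pairs of CpGs were called lower, and none made a hypomethylated region (HMR), which takes at least 3 consecutive lower CpGs over more than 50 bp. An HMR was found at 53.8% of the 26 motifs in this pool.

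Within run 4, the GR comparison changed sign. GR WT was at 51.6% upstream (18 reads) and GR Sc at 34.1% (68 reads), and over all 23 CpGs Δmet was 16.1 points (± 26.3), again within counting error. Within the run 1 CpG was lower and 7 were higher, beside 36.1% and 21.3% over all pairs, and no HMR was found, beside an HMR at 40.0% of the motifs. The GR Sc fragment was at 74.6%, 74.0% and 73.9% upstream in runs 5, 1 and 2, where GR WT had at most a single read per CpG. These are the runs in which ER WT also stood above 80%.

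ER in +SssI ESCs gave no difference beyond counting error over pooled runs and lower methylation at WT in run 4, the run that held 10 reads of both fragments. Over all runs the WT fragment was at 65.6% (62.4% to 68.8%, median 853 reads) and the Sc fragment at 77.6% (50.4% to 92.2%, 13 reads), and Δmet was −11.9 points (± 22.9). The low number of Sc reads sets the width of this interval. Of the 24 CpGs, 8 were lower and 3 higher, with no HMR, beside 50% and 12.2% of CpGs over all pairs. The largest fall was at −178 bp, with 62.7% of 855 WT reads and 100% of 13 Sc reads methylated, and the largest rise at −148 bp, with 65.8% and 23.1%. In the motif, 74.5% of 1646 WT reads and 55.6% of 45 Sc reads were methylated (adjusted p = 0.014, Fisher's exact test).

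When ER was compared within run 4, the upstream fall became larger. ER WT was at 30.7% upstream (91 reads) and ER Sc at 84.2% (13 reads), a Δmet of −53.5 points (± 22.0). The other Sc fragments averaged 50.1% upstream in this run, above ER WT and below ER Sc, so the value also rests on a high Sc fragment with few reads. Over all CpGs Δmet was −40.3 points (± 24.9), with 17 CpGs lower and 1 higher, beside 42.9% and 12.5% over all pairs within runs. HMRs ran from −242 to −166 bp (7 CpGs, mean −51.0 points) and from −121 to −32 bp (7 CpGs, mean −68.6 points). The CpG between them, at −148 bp, had 23.1% at both fragments. Downstream, the fragments did not differ detectably in that run, with 57.2% at WT (206 reads) and 56.0% at Sc (29 reads), and the CpG in the motif had 41.8% and 52.4%. In run 5, which holds no 10 reads of ER Sc, ER WT was at 72.9% upstream (763 reads), close to the 74.2% of the other Sc fragments there. The fragment without a motif, taken as reference over all runs, left ER WT 2.03 points above it (± 5.95).

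GR in +SssI ESCs was the comparison in which a WT steroid receptor fragment was lower at all CpGs. GR WT was at 32.4% (22.3% to 44.5%, median 65 reads) and GR Sc at 54.5% (48.0% to 60.9%, 223 reads), a Δmet of −22.1 points (± 13.1). All 23 differences were below 0 and 16 were called, none of them higher, beside 50% lower and 12.2% higher over all pairs. Over pooled runs GR was the 9th lowest of the 26 pairs, whose median was −12.2 points, and within runs the 15th lowest of 25, whose median was −5.36 points. Its HMRs reached from −264 to −187 bp (6 CpGs, mean −24.7 points) and, across the motif, from −32 to 252 bp (6 CpGs, mean −30.2 points). HMRs were present at 57.7% of the motifs in this pool. The largest fall lay at 252 bp, with 33.0% of 97 WT reads and 80.1% of 387 Sc reads methylated (adjusted p = 1.68e-17, Fisher's exact test). Next to the motif, the CpG at −32 bp had 36.5% and 52.7%, and the CpG at 37 bp had 46.4% and 62.6%.

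The upstream and downstream amplicons of GR parted within run 4. Upstream, both fragments were low, at 27.6% for WT (57 reads) and 27.0% for Sc (101 reads), so that Δmet was 0.557 points (± 14.5). GR Sc reached 71.7% upstream in run 5 (122 reads), where GR WT had a median of 8 reads. Downstream, GR WT was at 32.1% (93 reads) and GR Sc at 53.5% (199 reads) in run 4, a Δmet of −21.3 points (± 11.8) that exceeded counting error. GR Sc was higher downstream in run 5 as well, at 77.9% (187 reads), where GR WT had a median of 3 reads. An HMR from 46 to 252 bp held within the run, over 4 CpGs with a mean of −28.3 points (Fisher's exact test, highest adjusted p 0.00025), beside an HMR at 48.0% of the motifs compared within runs. At 252 bp the run-4 values were 30.9% and 71.4%. Over the fragment, Δmet within the run was −4.20 points (± 14.9). Against the fragment without a motif and against the mean of the other 25 Sc fragments, GR WT differed by −30.8 points (± 12.4) and −36.1 points (± 11.4), both with all runs summed. The second interval counts the error of GR WT alone. GR WT was read mostly in run 4, where other Sc fragments averaged 50.1% upstream and 66.87% downstream. In run 5 they averaged 74.2% and 66.99%. Neither reference was compared within runs.

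In NPs, all 4 constructs were highly methylated and neither motif made a difference beyond counting error over the fragment. Under −SssI, ER WT was at 91.7% (111 reads) and ER Sc at 88.4% (336.5 reads), a Δmet of 3.25 points (± 6.18). GR WT was at 92.9% and GR Sc at 92.4%, a Δmet of 0.43 points (± 5.15). The intervals end at −2.93 points for ER and −4.72 points for GR on the side of a fall. Within runs, Δmet was 1.21 points (± 7.54) for ER and 0.20 points (± 5.66) for GR. The ER pair then had 3 lower and 8 higher CpGs and the GR pair 4 lower and 3 higher, beside 31.9% lower and 13.7% higher over all pairs, and neither had an HMR, beside 36.0% of the motifs. In this pool the constructs shared runs 9, 10 and 2 upstream, which again differed in reads per construct by no more than sampling noise and may hold the same molecules.

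Single CpGs of the ER pair differed strongly in −SssI NPs all the same. At −275 bp, 42.9% of 112 WT reads and 99.4% of 336 Sc reads were methylated, the largest fall in the pool for either receptor (adjusted p = 9.76e-43, Fisher's exact test). The neighbouring CpG at −291 bp had 45.0% and 92.0%. The low value at −275 bp came from runs 9, 10 and 2, with 29.2%, 22.2% and 25% at WT, while run 11 had 91.3% of 23 reads. Runs 9, 10 and 2 may hold the same molecules, and the test counts their reads as separate. In the other direction, 9 CpGs of ER were higher at WT, beside 13.5% of CpGs over all pairs, and the 2 CpGs named were those called lower, beside 31.3%. The rise was largest at −208 bp, with 98.2% and 68.3%. The CpG in the motif had 97.2% of 216 WT reads and 86.4% of 470 Sc reads. GR had 1 lower CpG, at −101 bp (71.7% and 93.3%), and 3 higher ones, with the largest rise at −187 bp (97.9% and 80.4%). Neither pair had an HMR or a region of higher CpGs, while HMRs were found at 34.6% of the motifs.

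Under +SssI, NPs gave the narrowest intervals of Δmet in the 5 pools. ER WT was at 85.8% (799.5 reads) and ER Sc at 88.0% (535 reads), a Δmet of −2.21 points (± 3.67). GR WT was at 91.1% (419 reads) and GR Sc at 90.4% (604 reads), a Δmet of 0.65 points (± 3.60). On the side of a fall, the intervals end at −5.87 points for ER and −2.96 points for GR. Downstream alone, Δmet passed its interval, at −5.30 points (± 3.03) for ER and 3.96 points (± 3.91) for GR, while upstream it did not. For GR, the downstream value within runs was 1.77 points (± 4.04). For ER, no run held 10 reads of both fragments. The downstream amplicon of ER WT was at 90.0%, 90.2% and 89.5% in runs 9, 10 and 2. It was at 60.3%, 59.5% and 71.0% in runs 11, 1 and 8. ER Sc was at 84.5% downstream in run 7, so the direction of the ER value differed with the runs of ER WT. At the CpG in the ER motif Δmet was −3.70 points (± 2.11). Of the ER CpGs, 1 was lower and 1 higher, beside 36.2% and 10.4% over all pairs. The lower CpG was at −291 bp, with 68.6% of 796 WT reads and 93.6% of 535 Sc reads, and the higher one at −101 bp, with 91.9% and 81.0%. GR had a single called CpG, next to the motif at 37 bp, with 96.9% of 456 WT reads and 80.0% of 1032 Sc reads (adjusted p = 4.2e-20, Fisher's exact test). No HMR was found at either motif, against 46.2% of the motifs.

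The ER comparison in this pool could not be repeated within a run. Run 7 held 99.1% of the upstream reads of ER Sc and no run held 10 reads of both ER fragments. Upstream methylation of ER WT was 90.5%, 94.3% and 90.2% in runs 9, 10 and 2, but 68.5% in run 1 and 82.3% in run 8. At −291 bp, the CpG called lower, these runs had 76.9%, 92.2%, 76.2%, 31.9% and 24.4% at WT. Runs 1 and 8 thus stood below the other 3, and without run 1 Δmet was 0.56 points. For GR, runs 9, 10 and 2 held both fragments, and Δmet within runs was 0.15 points (± 3.73). Within runs, the CpG at 37 bp was the single called CpG of GR, beside 32.0% of CpGs lower and 18.3% higher over all pairs and an HMR at 27.8% of the motifs, with 96.9%, 96.8% and 97.0% at WT and 83.0%, 84.9% and 84.1% at Sc in runs 9, 10 and 2. In runs 11, 1 and 8, where GR WT had no 10 reads, GR Sc was at 40.7%, 43.1% and 95.1% at this CpG. Downstream, runs 9 and 10, and likewise runs 11 and 1, were alike in their construct counts, and the tests count their reads as separate.

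In TET TKO ESCs, nearly every CpG of the 4 constructs stayed methylated, and no WT fragment was lower over its length. ER WT was at 95.04% (82.2% to 98.8%, median 34 reads) and ER Sc at 92.4% (54 reads), a Δmet of 2.67 points (± 10.2). GR WT was at 99.6% (84.5% to 100%, 22 reads) and GR Sc at 92.1% (28 reads), a Δmet of 7.55 points (± 10.4). At this depth the intervals reach down to −7.50 points for ER and −2.80 points for GR. The differences were larger downstream and went towards higher methylation at WT.

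Downstream of the ER motif, 3 consecutive CpGs from 46 to 151 bp were higher at WT, beside 22.9% of CpGs over all pairs. At 46 bp, 98.1% of 154 WT reads and 51.6% of 91 Sc reads were methylated, and at 151 bp 96.1% of 152 and 46.7% of 90 (adjusted p = 2.01e-17, Fisher's exact test). The CpGs at 37 and 252 bp on either side did not differ, with 96.7% and 98.9% at the first and 98.0% and 96.7% at the second. The low Sc values came from 2 of the 3 runs. ER Sc had 0 of 23 methylated reads at 151 bp in run 10 and again in run 11, which allows a share of up to 13.0% in each, whereas run 9 had 95.5% of 44 reads. Runs 10 and 11 were alike in their downstream construct counts, so that they may be the same molecules read again. Within those runs Δmet of the downstream amplicon was 57.5 points (± 14.4). That interval and the adjusted p at 151 bp count the reads of both runs as separate. Alone, run 10 gave 57.0 points (± 20.4) and run 11 gave 58.0 points (± 20.3). Upstream, 2 ER CpGs were lower, beside 21.3%, at −242 bp (67.6% of 34 WT reads and 98.1% of 54 Sc reads) and at −88 bp (76.5% and 98.1%). Run 9 gave a median of 8 of the upstream WT reads and run 10 a median of 26. Within run 10, all 26 WT reads were methylated at −88 bp and that CpG was not called. At −242 bp, 57.7% of 26 WT reads were methylated there and the call remained.

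Downstream of the GR motif, all 5 CpGs were methylated in every WT read of the TET TKO pool and in 83.6% to 84.7% of the Sc reads, a Δmet of 15.9 points (± 5.22). The Sc values were almost the same at each CpG, over 189 reads (Fisher's exact test, highest adjusted p 0.0134). All downstream GR WT reads came from run 9, in which GR Sc was at 97.5% (24 reads), and Δmet there was 2.50 points (± 6.25). Within runs, 1 CpG of GR was higher and none lower, and 3 of ER were higher and 1 lower, beside 21.4% higher and 21.3% lower over all pairs. GR Sc was at 80.9% and 83.2% in runs 10 and 11, which held no downstream GR WT reads. These runs may be the same molecules read again, and the pooled interval and p count their reads as separate. Upstream, the called CpG was at −208 bp, with all 22 WT reads and 53.6% of 28 Sc reads methylated. Taken with the 5 downstream CpGs, 6 CpGs were higher and none lower, and an HMR was found at neither receptor motif, against 26.9% of all motifs.

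Whether Δmet changed between pools was tested as a difference of 2 Δmet values, for both motifs and 5 contrasts, with p-values adjusted over the 10 differences. These tests compare the reads of pools and not replicates of a condition. For ER, Δmet in ESCs was lower under +SssI than under −SssI, with a difference of −63.7 points (± 26.1, adjusted p = 8.54e-06, normal approximation) over pooled runs and −66.4 points (± 32.2) within runs. Both ESC values of ER rest on Sc reads of run 4. The NP value under −SssI was below that of ESCs, by a difference of −48.5 points (± 14.0, adjusted p = 9.63e-11) over pooled runs and −24.9 points (± 21.7) within runs. In +SssI cells, the ER differences between NPs or TET TKO ESCs and ESCs, of 9.73 (± 23.2) and 14.6 points (± 25.05), did not exceed their intervals, and the second was 49.0 points (± 27.8) within runs.

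For GR, the lower methylation at WT in +SssI ESCs was not seen in the other +SssI pools. Δmet was 22.7 points higher in NPs (± 13.6, adjusted p = 0.00264, normal approximation) and 29.6 points higher in TET TKO ESCs (± 16.7, adjusted p = 0.0017). Within runs, these differences were 4.35 points (± 15.3) and 8.86 points (± 17.2), neither beyond its interval. The +SssI and −SssI pools did not differ detectably for GR, with −9.29 points (± 26.8) in ESCs and 0.21 points (± 6.28) in NPs.

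The receptors that bind these elements were also measured by RNA-seq, with 3 libraries for each of the cell types ESC, NP and TET TKO ESC, 20519702 to 23976914 counts per library in the first 2 groups and 80704741 to 93210102 in the third. Per the study's methods the libraries are biological replicates, and the tests cover the spread between them. Tet1 and Tet2, checked first, were lower in TET TKO ESCs, with log2 fold changes of −2.28 and −2.94 (adjusted p = 8.67e-05 and 1.74e-05, edgeR's quasi-likelihood test), with 13.5 and 2.48 RPKM against 65.1 and 19.0 in ESCs. Tet3 was below 1 RPKM in every library of both groups. Pou5f1 and Nanog, which mark pluripotent cells, stood at 393 and 283 RPKM in ESCs and at 296 and 243 in TET TKO ESCs, while Zfp42 fell from 304 to 50.6 and Klf4 was at 72.2 and 37.6. The 5 NP markers Pax6, Sox1, Nes, Neurog2 and Hoxb4 ranged from 11.9 to 74.2 RPKM in NPs and reached at most 4.02 RPKM in ESCs. In NPs these 4 pluripotency genes were at 0.79 to 2.79 RPKM.

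Of the estrogen receptor genes, Esr1, which encodes ERα, and Esr2, which encodes ERβ, were close to silent in all 3 cell types. Esr1 had 4, 7 and 2 counts in the ESC libraries, 0, 15 and 1 in the NP libraries and 3, 6 and 4 in the TET TKO libraries, so its product was at most 0.0452 RPKM. Esr2 had 6, 1 and 9 counts in ESCs, 6, 5 and 1 in NPs and 33, 20 and 11 in TET TKO ESCs. Neither gene passed the filter of 1 RPKM in any library and neither was tested. Nr3c1, the GR gene, was expressed in every library, with 4.29, 4.62 and 3.52 RPKM in ESCs, 2.28, 2.22 and 1.92 in NPs and 3.81, 3.70 and 2.97 in TET TKO ESCs. Its levels in NPs lay below those in both kinds of ESCs, and the fold of 1.94 between ESCs and NPs (adjusted p = 0.000914, edgeR) was under the limit of 3 for a call. The TET TKO difference was −0.26 on the log2 scale (SE 0.16, adjusted p = 0.237, edgeR).

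Of the 9 receptor genes, 5 could be tested between NPs and ESCs and 2 were called, both estrogen-related receptors, beside 12.4% of tested genes called higher and 9.98% called lower. Esrrb, a receptor of the pluripotency network, had 149, 152 and 165 RPKM in ESCs, 114, 72.8 and 120 in TET TKO ESCs and 0.784, 0.885 and 0.657 in NPs. In NPs it fell by 7.65 on the log2 scale (SE 0.16, adjusted p = 1.32e-07, edgeR), and no NP library came near the ESC range. Esrrg rose from 2, 6 and 0 counts in ESCs to 128, 137 and 105 in NPs (adjusted p = 0.000119, edgeR). It passed the filter narrowly, at 1.01 RPKM in its highest library when scaled within these groups, and was under 1 RPKM in every library when scaled over all of them. The call was lost without the first ESC library (adjusted p = 0.00124). Without the first NP library, in contrast, Esrrg did not pass the filter. Nr3c2, the mineralocorticoid receptor gene, was 3.54 times higher in NPs at an adjusted p of 0.0062 (edgeR), over the limit of 0.001, which it passed with DESeq2 (0.00036). Esrra had 9.54, 11.8 and 6.77 RPKM on average in ESCs, NPs and TET TKO ESCs and was not called. Pgr, the progesterone receptor gene, stayed below 0.4 RPKM in every library. Between TET TKO ESCs and ESCs, 3 of the 9 genes could be tested, Nr3c1, Esrra and Esrrb, and 0 of them were called by edgeR or by DESeq2, beside 1.1% of tested genes higher and 1.21% lower, while Esrra and Esrrb had an unadjusted edgeR p under 0.05.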

How the data were processed

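Hi-TransMet tables and RNA-seq counts were taken as deposited. Per the study's methods, the authors used Trim Galore 0.4.4 for trimming, Flexbar for demultiplexing and Bismark 0.20.0 for alignment to FR1, with a perfect match of each read to its construct. UMI duplicates were removed, and, for every pool but that of TET TKO ESCs, a filter on methylation outside CpGs was applied. As deposited, the tables give read counts, total and methylated, for each CpG of a construct in each run. A further table by the authors holds percent methylation per construct and CpG with at least 10 reads, and percentages recomputed here from the counts differed by at most 0.0005 points over 94 values of the ER and GR constructs in each pool. For RNA-seq, the authors deposited counts per gene from STAR 2.6.1b and featureCounts on GRCm38 with Ensembl gene models, counted without regard to strand, so overlapping and antisense genes are uncertain.

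The tables hold 189484 to 732435 CpG calls per pool, of which the 4 constructs hold 416 to 28469 each. The ESC −SssI and NP +SssI tables are each named by 2 samples and were entered as 1 pool. Reads were summed over runs. CpGs between −300 and 260 bp with at least 10 reads in both fragments were used. Wilson intervals of levels and normal intervals of Δmet take the median read number of a fragment, since reads of an amplicon cover its CpGs together, and they assume independent reads. Within runs, CpGs were weighted by Mantel-Haenszel weights and tested by the Cochran-Mantel-Haenszel test, or by Fisher's exact test where 1 run remained. The study's DSS model was not used here. Runs were called alike where a chi-square test of reads per construct gave a p over 0.01.

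RNA-seq groups were compared with edgeR 4.0.16 in R 4.3.3 (quasi-likelihood test, TMM, Benjamini-Hochberg) over genes with at least 1 RPKM in at least 1 library of the 2 groups (TMM factors of those groups; printed levels use factors over all 9 libraries), and called at an adjusted p under 0.001 and a fold of 3. DESeq2 1.42.0 was an alternative. Other calculations used Python 3.11.15, scipy 1.17.1, numpy 2.4.6 and pandas 2.3.3. The calling scripts were tested on simulated data. For methylation, the simulated reads were independent and shared a common level across runs, so that test does not cover differences between runs. No column of per-sample values went unmatched to a sample (0 columns).

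The members, gene lists and tests were chosen with earlier results of these data known. Genes named are members of the list of 9 receptor genes, of which 1 is not reported here, the TET genes and the listed markers. CpGs named by rule are those with the largest called fall and rise, the ends of regions and the CpGs next to the motif, and others were chosen after their values were seen. Replicate numbers of the RNA-seq libraries were checked for pairing by the correlation of same-numbered deviations, which was −0.06, 0.01 and −0.13 for NPs with ESCs and −0.09, 0.34 and 0.24 for TET TKO ESCs with ESCs, so they were not taken as pairs.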

Additional observations from a re-analysis of the deposited data

Results flagged for a closer look

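The difference in Δmet between pools passed the test for 4 of the 10 contrasts. ER in ESCs differed by −63.7 points between +SssI and −SssI, and by −48.5 points between NPs and ESCs under −SssI. In both, ER Sc of the ESC pools was read in run 4, and the within-run differences were −66.4 and −24.9 points.

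GR under +SssI differed by 22.7 points between NPs and ESCs and by 29.6 points between TET TKO ESCs and ESCs. GR WT of the ESC pool was read mostly in run 4, whose other Sc fragments were at 50.1% upstream and 66.87% downstream, against 74.2% and 66.99% in run 5, and within runs the differences were 4.35 and 8.86 points.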

How the results depend on the processing

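Of 752 values recomputed under an alternative, 663 kept their direction and their side of the threshold, or moved by less than the stated limit. Leaving out 1 run gave 359 of the 752, of which 318 kept theirs. Some of those runs held no upstream or downstream reads of the 4 constructs, so that little could change. Results left with no CpG were not counted. Within runs, 23 of 44 values kept theirs. Coverage limits most ESC comparisons of ER and GR, since without run 4 no CpG with 10 reads was left for ER Sc or GR WT in either ESC pool, and without run 7 none for ER Sc in +SssI NPs. The cause of the changes below was not tested, except that a higher minimum of reads leaves fewer CpGs.

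With a minimum of 20 reads, no CpG was left for GR in −SssI ESCs, CpGs lower at WT ER numbered 0 in −SssI and 2 in +SssI ESCs, and in +SssI ESCs ER Sc was at 57.8% and Δmet of ER was −0.49 points. With 50 reads, ER in −SssI ESCs kept only the CpG in the motif (Sc at 0%, 0 lower and 1 higher), and in TET TKO ESCs Δmet of ER was 24.1 points with 0 lower CpGs. Summing reads over the CpGs of a fragment gave 77.9% for ER WT and 68.4% for GR Sc in −SssI ESCs, and Δmet of −3.67 points for ER in +SssI NPs and 11.99 points for GR in TET TKO ESCs.

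Within runs, Δmet of GR reversed in −SssI ESCs (16.1 points), that of ER in +SssI ESCs passed its interval (−40.3) and that of GR there no longer did (−4.20). Lower and higher CpGs were then 2 and 12 (ER) and 1 and 7 (GR) under −SssI, and 17 and 1 (ER) and 5 and 1 (GR) under +SssI, with 2 HMRs for ER and 1 for GR. Lower CpGs of GR were 4 in −SssI NPs, and in TET TKO ESCs ER had 1 lower and GR 1 higher CpG. Of the differences between pools, those of GR reversed for +SssI minus −SssI in NPs (−0.0513 points) and for NPs minus ESCs under −SssI (−15.9), and under +SssI they no longer passed for NPs (4.35) and TET TKO ESCs (8.86) minus ESCs, while that of ER for TET TKO ESCs did (49.0).

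With the fragment without a motif as reference, Δmet of ER in +SssI ESCs reversed (2.03 points) and that of GR in TET TKO ESCs passed (10.3). The ER differences were then −9.22 points for +SssI minus −SssI ESCs and −10.8 for NPs minus ESCs under −SssI, no longer past the threshold, and −3.85, reversed, for NPs minus ESCs under +SssI. With the other 25 Sc fragments, Δmet of GR passed in +SssI NPs (4.75) and TET TKO ESCs (11.1). These intervals count the error of the WT fragment alone, so they are narrower than those of a difference between fragments.

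Counting look-alike runs once, an alternative chosen after seeing the data, gave 2 lower and 0 higher CpGs of ER and 2 higher of GR in +SssI NPs, and a difference of −0.27 points for GR between the NP pools.

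Leaving out 1 run at a time gave these ranges. In −SssI ESCs, ER WT was at 69.0% to 80.5% and GR Sc at 60.0% to 74.2%. In +SssI ESCs, ER WT was at 36.7% to 69.1%, GR Sc at 32.8% to 73.0%, Δmet of ER at −40.9 to −11.3 points (8 to 19 lower, 1 to 3 higher CpGs, 0 to 2 HMRs) and Δmet of GR at −22.1 to −4.25 points (5 to 16 lower, 0 to 1 higher, 1 to 2 HMRs), the values furthest from the pooled ones being those without run 5. In −SssI NPs, Δmet of GR was −0.81 to 1.37 points, with −0.81 without run 8 and −0.50 without run 9, and had 1 to 3 lower CpGs. In +SssI NPs, ER WT was at 83.8% to 88.5%, Δmet of ER at −4.17 (without run 10) to 0.56 points (1 to 5 lower, 0 to 3 higher), and GR had 0 to 1 lower and 1 to 3 higher CpGs. In TET TKO ESCs, ER Sc was at 81.1% to 94.5% and GR WT at 99.5% to 100%, with Δmet of 0.77 to 15.5 points for ER (0 to 2 lower) and 5.25 to 13.8 points for GR (1 to 6 higher), the highest without run 10.

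For RNA-seq, the replicate block left 2 receptor genes called for NPs, 0 for TET TKO ESCs, and changed no call of them, with 3415 against 3408 and 674 against 322 genes called in all. Leaving out 1 library gave 1 to 2 called receptor genes in NPs, with 1 without the first ESC or the first NP library.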
